A study of Homo sapiens with 10 samples.

Results

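The genes of retinoic acid (RA) handling examined here were ALDH1A1, ALDH1A2, ALDH1A3, CYP26A1, RARA, RARB, RARG, CRABP1 and CRABP2, together with STRA8. These 10 genes were chosen by name for their known roles, but with earlier results of these data known. All 10 were found among the 64940 genes kept from the expression table. They were measured by RNA-seq in 2 libraries of control cells and 2 of oeDAZL cells, all grown from H9, an established human embryonic stem cell line. The oeDAZL cells carried the transgene for human DAZL, a germ cell RNA-binding protein, and are labelled as hPGCLCs, that is, cells made in culture to resemble human primordial germ cells. The control cells have a wild-type genotype and are labelled as having differentiated spontaneously, whereas the series design text calls them wild-type PGCLCs, so the transgene and the culture conditions cannot be told apart. According to the methods of the study, hESCs were differentiated with BMP4 and BMP8a in a medium with fetal bovine serum, and the vector was delivered with lentivirus. No RA is named among the additives. For the miRNA libraries, the same methods describe controls that received a GFP lentivirus in that medium, with cells collected by sorting. How the control cells of the RNA-seq were made is not described separately, so the paper and the labels give differing accounts. Whether the 2 libraries of a group came from separate cultures is not given in the sources used here, so the spread between them may be technical.

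RA is made from vitamin A inside cells. Retinol dehydrogenases first oxidise retinol to retinaldehyde, and the enzymes of the ALDH1A family then oxidise retinaldehyde to RA. CRABP1 and CRABP2 carry RA in the cytoplasm, with CRABP2 known for passing it to the nucleus. There RA binds RARA, RARB or RARG, which sit on DNA as dimers with an RXR partner and switch genes on when RA is bound. CYP26A1 breaks RA down and is itself a textbook RA target, as is RARB. In the fetal gonad, RA is known for inducing STRA8, a gatekeeper of entry into meiosis, in germ cells that express DAZL.

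The site through which RA receptors act on RARB and CYP26A1 is a pair of half-sites in the same orientation with 5 bases between them, called DR5. A half-site of 6 bases was searched as A or G, then G, then G or T, then TCA, on both strands of the RefSeq promoter windows (GRCh38.p14), which run from 250 bases before to 50 bases after each annotated start. All 10 genes had such windows, 18 in all. A DR5 was found in 1 window of RARB and 1 window of CYP26A1 and in no other window of these genes, and 0.0883% of all 35116 windows held one. The 2 sites are printed here because their genes are the classical readouts of RA among the 10. They are given 5′ to 3′ in the orientation of the match, with the half-sites in capitals and 6 flanking bases on each side.
RARB, chr3:25428204-25428232, forward strand: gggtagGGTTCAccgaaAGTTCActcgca
CYP26A1, chr10:93073797-93073825, reverse strand: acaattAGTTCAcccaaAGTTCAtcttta
The RARB site begins 53 bases before the RefSeq start at 25428263 and runs in the direction of the gene. The CYP26A1 site spans 90 to 74 bases before the start at 93073893 and lies on the strand opposite to the gene. Both printed stretches lie within the gene as GENCODE 44 annotates it and overlap an annotated exon. Pairs spaced by 1 or by 2 bases, called DR1 and DR2, were found in 0.131% and 0.0399% of all windows and in none of the 18. A match describes the letters only, and binding was not measured.

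In the whole table, DAZL was listed at 0 and 0.0333 TPM in controls versus 102 and 101 TPM in oeDAZL. TPM is a transcript level per length and per library total, so that levels of different genes can be compared, but it keeps no read depth, and the depth behind each value is unknown. Control replicate 1 stood apart on the first principal component, at −30.1, against −7.97 for control replicate 2 and 22.4 and 15.7 for the oeDAZL libraries. The 9 markers of primordial germ cells summed to between 147 and 165 TPM and were uneven: DDX4 was listed at 0 in all 4 libraries, NANOS3 was between 0.732 and 1.66 TPM and SOX17 between 2.52 and 3.35 TPM, whereas TFAP2C was between 44.3 and 53.9 TPM. PDPN and ALPL, which many other cells also express, were between 32.9 and 58.5 TPM and between 44.01 and 52.7 TPM. In contrast, HAND1, a mesodermal and extraembryonic factor, was between 958 and 1250 TPM and GABRP, an amnion marker, was between 1208 and 1408 TPM. These libraries were bulk, so fewer cells of a type and less RNA per cell cannot be told apart.

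CRABP2 was by far the most abundant of the 10 genes, STRA8 was at or near 0, and the receptors and CYP26A1 lay between them. In the control libraries, mean levels followed the order CRABP2 (692 TPM), CYP26A1 (35.4 TPM), CRABP1 (28.3 TPM), RARG (24.4 TPM), RARA (21.4 TPM), RARB (18.5 TPM), ALDH1A1 (7.18 TPM), ALDH1A3 (3.77 TPM) and ALDH1A2 (3.49 TPM). Of the neighbours in this order, CYP26A1 overlapped CRABP1, CRABP1 overlapped RARG, RARG overlapped RARA, and ALDH1A3 overlapped ALDH1A2 in their libraries. In the oeDAZL libraries, ALDH1A2 (7.68 TPM) was the most abundant of the 3 synthesis enzymes, and ALDH1A1 (4.47 TPM) and ALDH1A3 (4.64 TPM) overlapped. There RARA (22.1 TPM) lay above RARB (19.0 TPM) and RARG (17.9 TPM), which overlapped, and CRABP1 (13.5 TPM) lay below all 3 receptors.

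**Figure D1:**
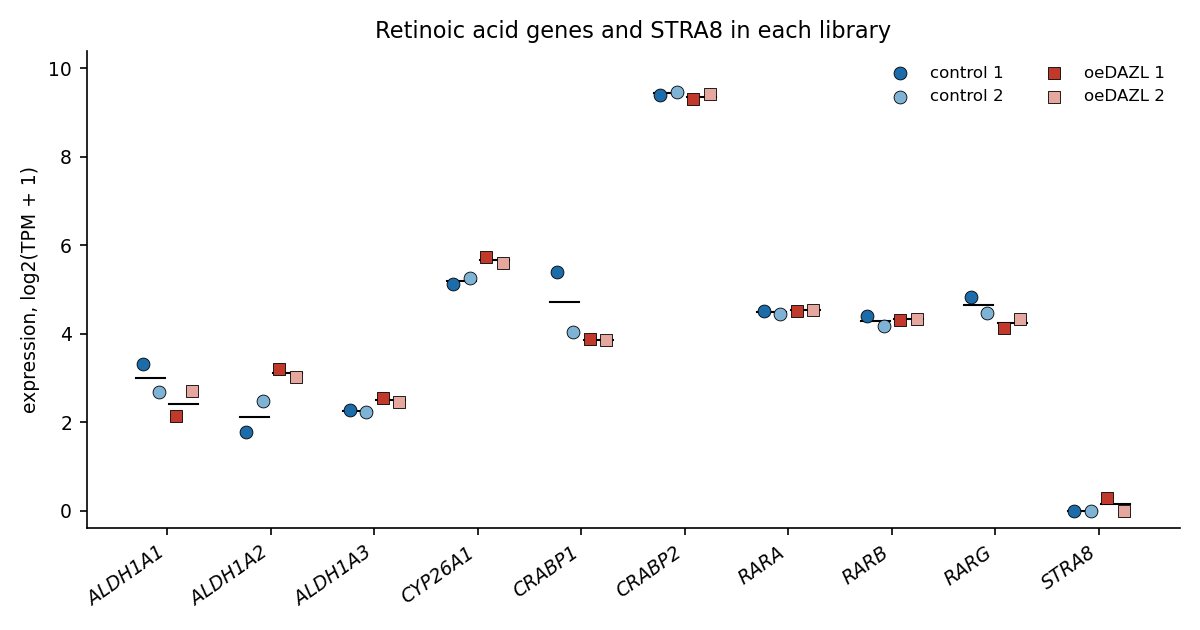
Expression of the 10 genes in each library, as log2(TPM + 1) on the vertical axis, with control libraries as circles, oeDAZL libraries as squares and the mean of each group as a line. CRABP2 lies near the top at 636 to 709 TPM in all 4 libraries and STRA8 at the bottom, while CRABP1 is set apart by control replicate 1 at 41.0 TPM.

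For the test, TPM was turned into log2(TPM + 1), and limma was fitted to the 16687 genes whose TPM averaged 1 or more across libraries. The added 1 shrinks the fold change of genes with low TPM. Of the 10 genes, 9 passed the filter and STRA8 did not. None of the 9 was called at the thresholds of the study, a fold change of at least 2 with an unadjusted P-value up to 0.05, which 0.689% of all tested genes passed. By the unadjusted P-value alone, 2 of the 9 were higher in oeDAZL (ALDH1A2 and CYP26A1), against 5.02% of all tested genes, and 1 was lower (RARG), against 15.2% of all tested genes. None of the 9 had a Benjamini-Hochberg adjusted P-value under 0.05 in limma, against 0.0599% of all tested genes. The oeDAZL values were both above the control values for 4 of the 9 (ALDH1A2, ALDH1A3, CYP26A1 and RARA), against 16.0% of all tested genes, and below them for 2 (RARG and CRABP1), against 38.4%. The median log2 fold change over the 9 genes was 0.04, beside −0.08 for all tested genes. With 2 libraries in each group, the smallest p of an exact permutation test would be 0.33, so none was run.

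**Figure D2:**
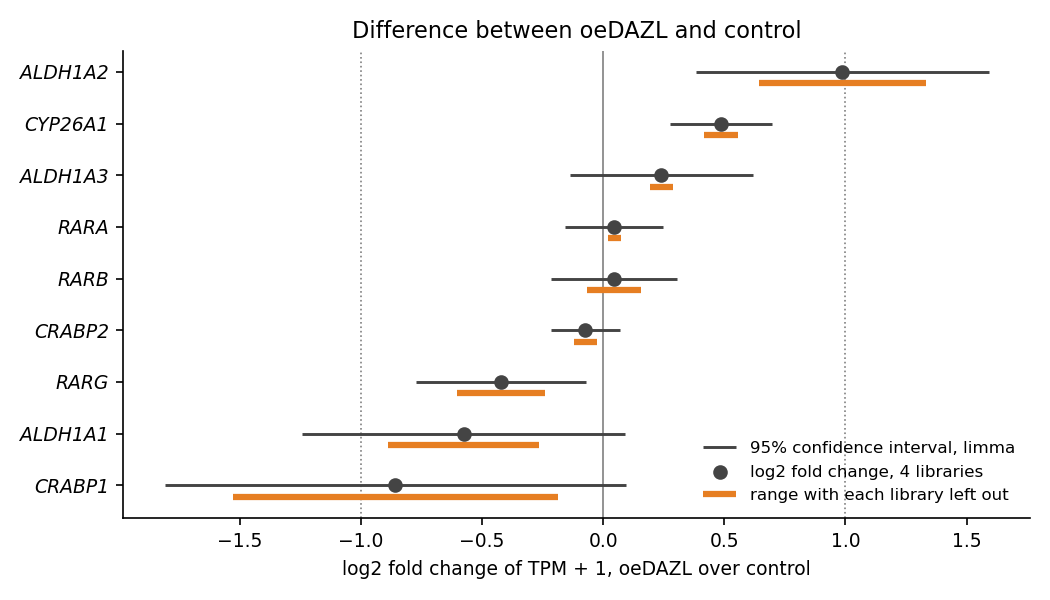
Log2 fold change of TPM + 1 in oeDAZL over control for the 9 tested genes, with limma's 95% confidence interval (grey line) and the range of values with each library left out in turn (orange bar), and dotted lines at a 2-fold change. ALDH1A2 reaches 0.99 and CYP26A1 0.49 with intervals above 0, RARG reaches −0.42 with an interval below 0, and the intervals of the other 6 genes include 0.

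Of the 3 synthesis enzymes, ALDH1A2 and ALDH1A3 were higher and ALDH1A1 was lower in oeDAZL by their means. ALDH1A2 (ENSG00000128918.15, chr15:57953424-58497866, reverse strand), the main RA-producing enzyme of the early embryo, was at 2.44 and 4.55 TPM in controls versus 8.26 and 7.11 TPM in oeDAZL. Both oeDAZL libraries were higher than both control libraries, and the lowest value was that of control replicate 1. The ratio of the group means was 2.20, and the log2 fold change was 0.99 (standard error 0.25, 95% confidence interval 0.38 to 1.59, unadjusted p = 0.00688, adjusted p = 0.128 in limma). The value stayed just short of the 2-fold threshold on the log2(TPM + 1) scale. It was 0.64 without control replicate 1 and 1.33 without control replicate 2, and ALDH1A2 passed the threshold without control replicate 2, without oeDAZL replicate 2, with a pseudocount of 0.1 and with 3 rescalings of the libraries.

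ALDH1A1 (ENSG00000165092.13, chr9:72900671-73080442, reverse strand), an isoform with wide expression in epithelia and stem cells, was at 8.92 and 5.44 TPM in controls versus 3.43 and 5.51 TPM in oeDAZL. The groups overlapped, since oeDAZL replicate 2 lay just above control replicate 2. Its log2 fold change was −0.57 (standard error 0.27, 95% confidence interval −1.24 to 0.09, adjusted p = 0.300 in limma), and it became −0.26 without control replicate 1. ALDH1A3 (ENSG00000184254.17, chr15:100877714-100916626, forward strand), which acts in the developing eye and nasal region, was at 3.85 and 3.70 TPM in controls versus 4.82 and 4.46 TPM in oeDAZL. The groups did not overlap, but the log2 fold change of 0.24 (95% confidence interval −0.14 to 0.62, adjusted p = 0.428 in limma) did not pass the test.

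The summed level of the 3 enzymes was 15.2 and 13.7 TPM in controls versus 16.5 and 17.1 TPM in oeDAZL. Within that sum, ALDH1A2 took 16.0% and 33.2% in controls versus 50.03% and 41.6% in oeDAZL. ALDH1A1 took 58.7% and 39.8% in controls versus 20.8% and 32.3% in oeDAZL, while ALDH1A3 took between 25.3% and 29.2% in all 4. The leading enzyme of the family was therefore ALDH1A1 in both control libraries and ALDH1A2 in both oeDAZL libraries. The difference in the share of ALDH1A2 was 21.2 percentage points, with a pooled SD of 9.57 percentage points within groups, and no test was run on it. It was 12.6 percentage points without control replicate 1 and 29.8 percentage points without control replicate 2.

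CYP26A1 (ENSG00000095596.12, chr10:93073475-93077885, forward strand), which clears RA and carries the DR5 printed above, was at 33.8 and 37.1 TPM in controls versus 52.6 and 47.5 TPM in oeDAZL. Both oeDAZL libraries were higher, by more than the spread within either group. Its log2 fold change was 0.49 (standard error 0.09, 95% confidence interval 0.28 to 0.70, unadjusted p = 0.00121, adjusted p = 0.0896 in limma). Leaving out 1 library at a time gave values between 0.41 and 0.56, the narrowest range of the 3 genes that passed the unadjusted P-value. The ratio of CYP26A1 to the summed synthesis enzymes was 2.22 and 2.71 in controls versus 3.19 and 2.78 in oeDAZL. Its paralogs were scarce: CYP26B1 lay between 2.67 and 4.22 TPM, with overlapping groups, and CYP26C1 was listed at 0 except for 0.0900 TPM in oeDAZL replicate 1.

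Of the 2 carriers, CRABP2 (ENSG00000143320.9, chr1:156699606-156705816, reverse strand) was at 675 and 709 TPM in controls versus 636 and 680 TPM in oeDAZL. It ranked near the 99th percentile of the tested genes in each library, and the groups overlapped. Its log2 fold change of −0.07 had a 95% confidence interval of −0.22 to 0.07 (adjusted p = 0.520 in limma), and with median-of-ratios scaling the value was 0.03. CRABP1 (ENSG00000166426.8, chr15:78340353-78348225, forward strand), which is thought to hold RA in the cytoplasm and favour its breakdown, was at 41.0 and 15.6 TPM in controls versus 13.7 and 13.4 TPM in oeDAZL. Control replicate 1 alone was high, and the other 3 libraries lay between 13.4 and 15.6 TPM. The log2 fold change of −0.86 (standard error 0.39, adjusted p = 0.284 in limma) became −0.19 without control replicate 1 and −1.53 without control replicate 2. The last fit rests on control replicate 1 alone, so it holds no spread between controls. In control replicate 1, AFP, a marker of visceral endoderm and liver, was at 36.3 TPM against 8.91 to 13.1 TPM in the others, and PAX6, a neural marker, was at 3.83 TPM against 0.0967 to 1.14 TPM. The summed 7 endoderm markers were 276 and 170 TPM in controls versus 172 and 213 TPM in oeDAZL, and the summed 7 neural markers were lowest in control replicate 1, at 443 TPM, with NES and TUBB3 as their most abundant genes. The part of such cells in the CRABP1 value was not tested.

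Among the receptors, RARG was lower in oeDAZL while the intervals of RARA and RARB lay around 0. RARG (ENSG00000172819.17, chr12:53210567-53232980, reverse strand) was at 27.6 and 21.2 TPM in controls versus 16.6 and 19.1 TPM in oeDAZL. The groups did not overlap, and control replicate 1 was again the library farthest from the rest. Its log2 fold change was −0.42 (standard error 0.14, 95% confidence interval −0.77 to −0.07, unadjusted p = 0.0257, adjusted p = 0.195 in limma), and it became −0.24 without control replicate 1, where the unadjusted p was 0.110 in limma. Without oeDAZL replicate 1 the value was −0.32, with an unadjusted p of 0.113 in limma. RARA (ENSG00000131759.18, chr17:40309180-40357643, forward strand) was at 21.8 and 20.9 TPM in controls versus 21.9 and 22.4 TPM in oeDAZL. The groups of RARA nearly touched, and the log2 fold change was 0.05 (95% confidence interval −0.16 to 0.25, adjusted p = 0.787 in limma). RARB (ENSG00000077092.19, chr3:24687887-25597932, forward strand), the second gene with a DR5, was at 20.0 and 17.0 TPM in controls versus 18.9 and 19.2 TPM in oeDAZL. Both oeDAZL values lay between the control values, and the log2 fold change was 0.04 (95% confidence interval −0.22 to 0.30, adjusted p = 0.843 in limma). The interval of RARB thus ended just above the lower bound of 0.28 for CYP26A1, and the difference between these 2 genes was not tested.

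The summed receptors were at 69.4 and 59.1 TPM in controls versus 57.4 and 60.6 TPM in oeDAZL. RARG was the leading receptor in both control libraries, with 39.8% and 35.9% of the sum, although in control replicate 2 RARA was close behind at 35.4%. RARA led in both oeDAZL libraries, with 38.1% and 36.9%. The share of RARB was 28.8% and 28.7% in controls versus 33.0% and 31.6% in oeDAZL. No receptor took less than 28.7% or more than 39.8% in any library, so all 3 were present at like levels.

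For STRA8 (ENSG00000146857.3, chr7:135231979-135258663, forward strand), a value above 0 was listed in 1 library alone, oeDAZL replicate 1, at 0.230 TPM, and the other 3 libraries were at 0. It was not tested, since its mean TPM was under 1. MEIOSIN, its partner in switching on meiotic genes, which the table lists as BHMG1, was at 0 in all 4 libraries. So were SYCP1, SPO11, HORMAD1 and TEX11, which act in meiotic chromosome pairing and recombination. Thus DAZL at 101 to 102 TPM stood beside STRA8 at 0.230 TPM at most. Of the 18 genes in the list of STRA8 partners and genes of meiotic entry, 11 passed the filter and none was called. By the unadjusted P-value, 1 of the 11 was higher and 1 was lower, near the background of 5.02% and 15.2% of all tested genes, and their median log2 fold change was −0.01, beside −0.08 for all tested genes. The higher gene was MSX2, a BMP-induced factor linked to meiotic entry and the most abundant of the list, at 201 and 205 TPM in controls versus 249 and 245 TPM in oeDAZL (log2 fold change 0.28, adjusted p = 0.0896 in limma). The lower gene was STAG3, a meiotic cohesin subunit, at 12.9 and 9.67 TPM in controls versus 7.16 and 7.46 TPM in oeDAZL (log2 fold change −0.55, adjusted p = 0.155 in limma). DMC1, the meiotic recombinase, was between 1.24 and 3.16 TPM with overlapping groups. REC8, also a meiotic cohesin subunit and named after its values were known, was between 9.63 and 12.1 TPM, with overlapping groups.

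The other genes of the pathway were counted in 4 further lists. All 5 lists were chosen with earlier results of these data known. Over all 5 lists together, 52 of 74 genes passed the filter and 0 were called in limma, against 0.689% of all tested genes. By the unadjusted P-value alone, 2 of the 52 were higher and 14 were lower, against 5.02% and 15.2% of all tested genes. Their median log2 fold change was −0.10, close to that of all tested genes.

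Among 19 genes of retinol uptake, storage and oxidation, 13 passed the filter and none was called. By the unadjusted P-value 0 were higher and 3 of 13 were lower, near the background of 15.2% of all tested genes, and the median was −0.10. STRA6, the membrane receptor that takes up retinol and a known RA target, was at 22.3 and 14.6 TPM in controls versus 11.3 and 9.16 TPM in oeDAZL. Its log2 fold change was −0.77 (standard error 0.21, adjusted p = 0.140 in limma), and it was −0.48 without control replicate 1. RDH10, the retinol dehydrogenase of the embryo that supplies the ALDH1A enzymes, was at 8.35 and 5.19 TPM in controls versus 3.67 and 3.85 TPM in oeDAZL. Its log2 fold change was −0.68 (standard error 0.22, adjusted p = 0.184 in limma), and without control replicate 1 it was −0.38. For both genes the groups did not overlap, and their direction was opposite to that of ALDH1A2. ADH5, the most abundant gene of the list, was between 177 and 217 TPM with overlapping groups. Of 5 further genes for breakdown and carrying of RA, 3 passed the filter and none had an unadjusted P-value of at most 0.05. FABP5, a fatty acid carrier that can also carry RA, was the most abundant of them, at 101 and 144 TPM in controls versus 150 and 144 TPM in oeDAZL.

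Of 16 RXR partners and co-regulators, 14 passed the filter, none was called, and by the unadjusted P-value 0 were higher and 3 were lower, near the background of 15.2%, with a median of −0.12. RXRB was at 4.72 and 4.27 TPM in controls versus 2.44 and 3.23 TPM in oeDAZL (log2 fold change −0.53, adjusted p = 0.202 in limma). CREBBP, a histone acetyltransferase that acts as a coactivator, was at 49.96 and 41.5 TPM in controls versus 35.1 and 37.7 TPM in oeDAZL (log2 fold change −0.32, adjusted p = 0.184 in limma). RXRA, named here only after its values were seen, made up between 87.9% and 92.1% of the summed RXR level. That sum was 40.0 and 36.4 TPM in controls versus 30.7 and 31.4 TPM in oeDAZL, so the RXR sum per RAR sum was 0.576 and 0.615 in controls versus 0.536 and 0.518 in oeDAZL. Under median-of-ratios scaling 1 of the 14 was lower by the unadjusted P-value, and the median of this list was −0.02, beside 0.01 for all tested genes.

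The list of 20 genes known to be induced by RA, from which the 10 genes were left out, lay lower in oeDAZL. Of its 15 tested genes, 12 had a negative log2 fold change, as did 10901 of all 16687 tested genes, and the median was −0.46, beside −0.08 for all tested genes. None was called, whereas by the unadjusted P-value 9 of the 15 were lower and 1 was higher, against 15.2% and 5.02% of all tested genes. Among those lower were TGM2 and STRA6 and, named after the values were known, HOXB4, MEIS2, NR2F2, ZNF703 and TSHZ1. HOXB1, a hindbrain HOX gene, was at 3.48 and 0.504 TPM in controls versus 0.0607 and 0.225 TPM in oeDAZL. It had the lowest log2 fold change of the list, −1.19, which became −0.40 without control replicate 1. NR2F2, a nuclear receptor of mesenchyme, was at 58.5 and 50.2 TPM in controls versus 34.4 and 34.2 TPM in oeDAZL (log2 fold change −0.65, standard error 0.09, adjusted p = 0.0896 in limma). TGM2, a transglutaminase and the most abundant gene of the list, was at 239 and 287 TPM in controls versus 227 and 221 TPM in oeDAZL. The higher gene was RARRES2, the chemokine-like protein chemerin, at 176 and 191 TPM in controls versus 282 and 265 TPM in oeDAZL (log2 fold change 0.57, standard error 0.06, adjusted p = 0.0836 in limma). Without control replicate 1, the median of the list was −0.29 with 6 lower and 1 higher by the unadjusted P-value, and without oeDAZL replicate 1 it was −0.45 with 5 lower and 1 higher. Scaling all 4 libraries by median of ratios gave a median of −0.36, beside 0.01 for all tested genes. By the unadjusted P-value, 7 were then lower and 2 higher. Quantile normalization gave a median of −0.36, beside 0.01 for all tested genes, with 6 lower and 2 higher. CYP26A1 was thus higher in oeDAZL while most tested genes of this list were lower. No gene of this list with a promoter window (11 of 20) held a DR5 there. Since 0.0883% of all windows held one, a count of 0 is near that share. Sites outside the windows were not searched, and the part of a DR5 in these directions was not tested. COL1A1 and COL3A1, collagens of mesenchyme named after their values were known, were lower in oeDAZL. COL1A1 was at 729 and 651 TPM in controls versus 455 and 486 TPM in oeDAZL. COL3A1 was at 583 and 479 TPM in controls versus 224 and 220 TPM in oeDAZL. Of the 10 mesoderm and mesenchyme markers, 9 passed the filter, 3 with a positive and 6 with a negative log2 fold change. That split is near the one of all tested genes given above. By the unadjusted P-value, 1 was higher and 3 were lower, against 5.02% and 15.2% of all tested genes. The higher marker was HAND1, at 958 and 1042 TPM in controls versus 1250 and 1247 TPM in oeDAZL. The other positive values were those of VIM and TWIST1. VIM was at 1188 and 1460 TPM in controls versus 1539 and 1469 TPM in oeDAZL (log2 fold change 0.19). TWIST1 had a log2 fold change of 0.10, with overlapping groups. The summed level of the markers was 3494 and 3660 TPM in controls versus 3495 and 3452 TPM in oeDAZL, with VIM and HAND1 as their most abundant genes. The part of such cells in the value of the RA-induced list was not tested.

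**Figure D3:**
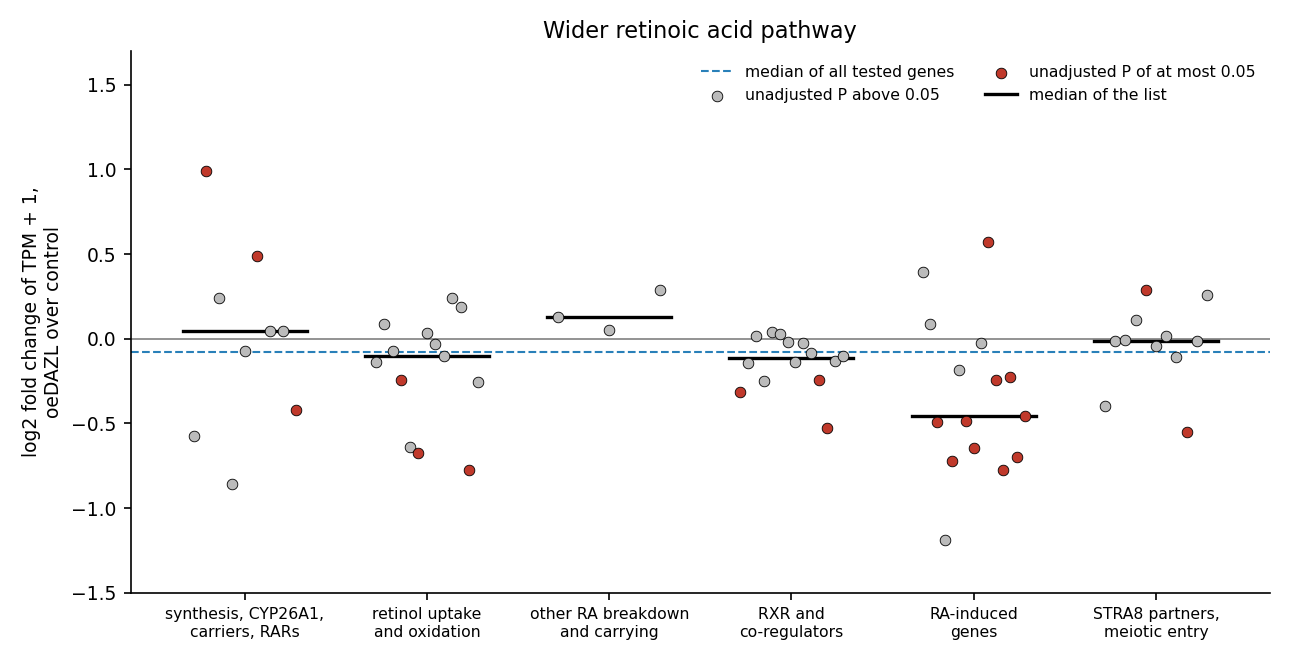
Log2 fold change of TPM + 1 in oeDAZL over control for the 9 tested RA genes and the tested genes of 5 lists of the wider pathway, with the median of each list (black line) and of all tested genes (dashed line at −0.08). Red points have an unadjusted P-value of at most 0.05 in limma, and the RA-induced genes have the lowest median, −0.46.

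The pattern of ALDH1A2, which had the largest absolute log2 fold change of the 9 genes, was set beside those of all tested genes by the distance of log2(TPM + 1) centred on the mean of the 4 libraries. The 3 nearest genes were SPHK1 (distance 0.144), AADACL3 (0.162) and AP000943.2 (0.162), and 93 genes lay within 0.5, so that 4 libraries do not single out a partner. Several of the 10 genes overlap exons of genes on the other strand, and strand use in the counting is not given in the sources used here. Of these, RARA-AS1 was between 1.44 and 3.16 TPM and ALDH1A3-AS1 between 0.324 and 0.836 TPM, and reads of such pairs cannot be told apart without strand. AQP9, which overlaps ALDH1A2, was at 0.163 TPM at most.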

How the data were processed

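RNA-seq of 2 control and 2 oeDAZL libraries was used. The 6 miRNA-seq samples of the series were not analysed here. The authors deposited 1 table of TPM per gene, made according to their methods and the labels by trimming with Trim Galore, mapping to hg38 with HISAT2 2.1.0, keeping uniquely mapped reads and quantifying with StringTie 2.1.4. The annotation release is not given in the sources used here. TPM keeps no depth, so no counting error was computed. From 65003 entries, 45 chromosome Y copies of pseudoautosomal genes and 18 repeated entries were left out. Where a symbol had several entries, the one with the highest mean was used.

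Genes whose TPM averaged 1 or more were tested on the log2(TPM + 1) scale with limma (version 3.58.1, under R 4.3.3; eBayes with trend, no covariates). The count model used in the study needs read counts, so it was not run. P-values were adjusted over all tested genes by Benjamini-Hochberg. The fit was tested on simulated data with larger changes than those of the tested RA genes, so that test does not cover changes of their size. Gene coordinates are those of GENCODE 44 on hg38, and promoter sequences are those of RefSeq. From each list the text names the 2 tested genes with the largest absolute fold change and the most abundant one. Some genes of these lists are not reported here by name. Alternatives varied the pseudocount, filter, scaling, trend, replicate block and libraries. The genes and lists were chosen with earlier results of these data known.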

Additional observations from a re-analysis of the deposited data

How the results depend on the processing

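The direction of ALDH1A1, ALDH1A2, CYP26A1, RARA, RARG and CRABP1 was kept under all 14 alternatives run, and that of ALDH1A3 under the 13 that could be run, since its mean TPM is under 5. CYP26A1 lay between 0.41 and 0.59 and ALDH1A2 between 0.64 and 1.33 on the log2 scale, and both had an unadjusted P-value of at most 0.05 in limma under all 14. The crossed block, chosen after the data were seen, matched replicate 1 of a group with replicate 2 of the other. No label gives that pairing. Its adjusted P-value in limma was 0.0130 for CYP26A1, 0.0222 for ALDH1A2, 0.0433 for RARG and 0.0837 for CRABP1. Under the other alternatives with all 4 libraries, it ranged from 0.0728 to 0.322 for CYP26A1 and from 0.110 to 0.364 for ALDH1A2. For RARG it ranged from 0.166 to 0.425 and for CRABP1 from 0.247 to 0.572. RARG lost its unadjusted P-value of at most 0.05 under 7 of the alternatives. RARB ranged from −0.067 to 0.16 with each library left out, and CRABP2 turned to 0.028 with median-of-ratios scaling. The difference in the share of ALDH1A3 was −0.043 percentage points without oeDAZL replicate 1 and 3.05 without oeDAZL replicate 2, and rescaling cannot move a share within a library.

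Among the 10 genes the number called, 0 in the report, was 1 (ALDH1A2) with a pseudocount of 0.1, under quantile normalization, under scaling by median of ratios, after mitochondrial genes were taken out of the TPM total and, chosen after the data were seen, with a pseudocount of 0.1 and no filter. It ranged from 0 to 2 with each library left out, where the lone library of a group is assumed to vary like the other group. The 2 were ALDH1A2 and CRABP1, without control replicate 2. The number with an unadjusted P-value of at most 0.05 ranged from 2 to 5 with each library left out, where it was 5 without control replicate 2. For the wider pathway, the number called was 2 with a pseudocount of 0.1, 2 with a pseudocount of 0.1 and no filter, and 0 to 2 with each library left out, all lower in oeDAZL. Over all genes, calls numbered 21 higher and 94 lower, and 41 and 52 with quantile normalization.

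With the replicate number as a block, 0 of the 10 genes and 1 of the wider pathway (HOXB1) were called, and 4 of the 10 had an unadjusted P-value of at most 0.05 in limma, CRABP1 being added. The labels do not say that a number marks a shared batch, and deviations of same-numbered libraries correlated at −0.104. With the crossed block, chosen after the data were seen, 0 of the 10 and 1 of the wider pathway were called, and 5 of the 10 had an unadjusted P-value of at most 0.05.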
